A study of Homo sapiens with 59 samples.

Results

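The aldo-keto reductases described here are 6 genes of A549 cells: AKR1B1, AKR1B10, AKR1C1, AKR1C2, AKR1C3 and AKR1A1. They were taken by symbol from the deposited gene table, where each matched 1 of 60675 rows, and all 6 were among the 18568 genes that passed the filter on low counts. A549 is an established human lung carcinoma line. The cells were treated for 24 h with 70% ethanol extracts of 6 herbs (Coptidis Rhizoma, Zizyphi Fructus, Citri Unshius Pericarpium, Cimicifugae Rhizoma, Bupleuri Radix, Aconiti Lateralis Radix Preparata) or of 2 mixed formulas (Yijung-tang, Banhasasim-tang), or with vehicle alone, and mRNA libraries made from total RNA were sequenced, 59 in all. High, medium and low doses were 500, 100 and 20 µg/mL, except for Coptidis Rhizoma (110, 22 and 4.4 µg/mL) and Bupleuri Radix (190, 38 and 7.6 µg/mL).

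Vehicle had 3 libraries, as did each dose of Bupleuri Radix, Cimicifugae Rhizoma and Citri Unshius Pericarpium. Aconiti Lateralis Radix Preparata had 3, 2 and 3 libraries from the high dose down. Coptidis Rhizoma, Zizyphi Fructus and Yijung-tang had 2 per dose, and Banhasasim-tang had 1 per dose and entered no test. Vehicle was dimethyl sulfoxide, given as 0.1% in the sample labels and as 2% in the text of the series. All titles name the same batch, but the vehicle libraries carry a library code of their own, so the set of libraries and the treatment cannot be told apart in any comparison with vehicle. Nothing in the labels says that replicates came from separate cultures, so the p-values measure the spread between these libraries, which may be technical. In a bulk library, fewer cells of one kind and less RNA per cell cannot be told apart.

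Aldo-keto reductases are NADPH-dependent enzymes that reduce aldehydes and ketones to alcohols. AKR1B1, aldose reductase, turns glucose into sorbitol in the polyol pathway, and AKR1B10 reduces retinal and lipid-derived aldehydes. The AKR1C enzymes act on steroids and prostaglandins: AKR1C1 inactivates progesterone, AKR1C2 inactivates dihydrotestosterone, and AKR1C3 makes testosterone and prostaglandin F. AKR1A1, aldehyde reductase, is widely expressed. AKR1B10 and the AKR1C genes are known targets of the transcription factor NRF2, which its inhibitor KEAP1 marks for degradation, and A549 cells carry a mutant KEAP1.

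The genes lie in clusters of near copies, which limits how reads can be assigned. In the GENCODE 29 annotation of GRCh38, AKR1B1 (ENSG00000085662) spans chr7:134442350-134459284 on the minus strand and AKR1B10 (ENSG00000198074) spans chr7:134527592-134541408 on the plus strand. AKR1C1 (ENSG00000187134, chr10:4963253-4983283, plus), AKR1C2 (ENSG00000151632, chr10:4987400-5018031, minus) and AKR1C3 (ENSG00000196139, chr10:5035354-5107686, plus) are neighbours. AKR1A1 (ENSG00000117448) spans chr1:45550543-45570049 on the plus strand. The coding sequences of AKR1C1 and AKR1C2 were identical at 950 of 969 bases (98%). AKR1C3 was 91.4% identical to AKR1C1 and 91% identical to AKR1C2, and AKR1B1 was 76.7% identical to AKR1B10.

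A stretch as long as 1 read, from coding base 784 to 883 in the GENCODE transcripts, shows what the counting has to resolve. Capitals mark bases that differ from AKR1C1.
AKR1C1: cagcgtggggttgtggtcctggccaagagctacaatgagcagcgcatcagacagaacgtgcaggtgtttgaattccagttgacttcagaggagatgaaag
AKR1C2: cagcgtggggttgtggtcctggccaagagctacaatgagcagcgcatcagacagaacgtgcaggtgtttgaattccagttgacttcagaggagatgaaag
AKR1C3: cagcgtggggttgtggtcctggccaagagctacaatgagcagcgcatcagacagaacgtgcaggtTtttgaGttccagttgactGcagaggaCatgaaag
A read of 100 bases from this stretch matches AKR1C1 and AKR1C2 equally, while AKR1C3 differs at 4 bases. The run that AKR1C1 and AKR1C2 share is 186 bases long. The stretch where AKR1C2 is least like AKR1C1, coding bases 63 to 162, is shown for contrast.
AKR1C1: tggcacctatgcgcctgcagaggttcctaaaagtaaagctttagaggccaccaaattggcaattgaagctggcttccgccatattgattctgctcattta
AKR1C2: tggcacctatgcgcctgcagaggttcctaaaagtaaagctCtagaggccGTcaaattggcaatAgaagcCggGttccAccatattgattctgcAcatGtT
AKR1C3: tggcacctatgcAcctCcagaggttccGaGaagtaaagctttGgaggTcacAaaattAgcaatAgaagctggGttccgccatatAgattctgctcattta
Here AKR1C2 differs from AKR1C1 at 10 bases and AKR1C3 at 11, so reads from this part can be told apart. Of the 870 windows of 100 bases in the AKR1C2 coding sequence, 164 (18.9%) also occur in AKR1C1 and 72 (8.28%) in AKR1C3. No window of AKR1B1 or AKR1A1 occurs in another of the aldo-keto reductases compared. In AKR1B10, 17 of 849 windows (2%) occur in its neighbour AKR1B15. Over whole protein-coding transcripts, with their untranslated ends, 1136 of 4358 AKR1C2 windows (26.1%) occur in AKR1C1. The single values of AKR1C1 and AKR1C2 are therefore uncertain, and their sum is given with the comparisons in which they are described at length.

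The similarity of AKR1C1 and AKR1C2 includes the bases before a RefSeq start of each. In RefSeq (GRCh38.p14), the window around the start of AKR1C1 is chr10:4963165-4963464 on the plus strand and that of AKR1C2 is chr10:5003808-5004107 on the minus strand, each read in the direction of transcription. By the GENCODE spans above, the AKR1C2 window lies inside its gene and the AKR1C1 window partly inside its own. The first 250 bases of each, which lie before the RefSeq start, are shown with capitals where aligned bases differ. Any part of these bases in the levels of the genes was not tested.
AKR1C1 upstream: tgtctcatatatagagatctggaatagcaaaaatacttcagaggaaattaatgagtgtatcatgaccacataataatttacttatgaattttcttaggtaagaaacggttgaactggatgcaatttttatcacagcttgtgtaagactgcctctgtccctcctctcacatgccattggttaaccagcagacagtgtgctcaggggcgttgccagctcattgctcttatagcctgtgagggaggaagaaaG
AKR1C2 upstream: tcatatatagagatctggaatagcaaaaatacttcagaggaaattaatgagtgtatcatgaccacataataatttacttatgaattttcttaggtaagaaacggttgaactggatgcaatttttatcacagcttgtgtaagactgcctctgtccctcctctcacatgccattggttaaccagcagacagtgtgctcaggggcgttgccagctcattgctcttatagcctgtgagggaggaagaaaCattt
Of 246 aligned bases, 245 (99.6%) were identical. The letters TGACNNNGC, the core of the element that NRF2 binds, were searched on both strands of the 7 windows found for AKR1A1, AKR1B1, AKR1C1, AKR1C2 and AKR1C3. They were in 0 of the 7 windows, and in 13.3% of all 35116 windows of the same length. AKR1B10 had no entry.

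The libraries held 17214755 to 39751161 counts. Keratin genes of epithelial cells were abundant (KRT8 averaged 3324 CPM, KRT18 2387 CPM and KRT7 2305 CPM). The lung surfactant genes SFTPB, SFTPC and SFTPA1 and the lung factor NKX2-1 averaged at most 0.1 CPM, as did PTPRC, PECAM1, DCN and ALB, markers of immune, endothelial, fibroblast and liver cells. In the same lists COL1A1, a collagen gene, averaged 30.2 CPM, CD14 1.78 CPM and PDGFRB 0.162 CPM. Of the epithelial genes EPCAM averaged 5.11 CPM, CDH1 28.6 CPM and ABCA3 24.5 CPM. The summed lung epithelial markers given below are therefore nearly all keratin counts. Levels here are CPM, the counts as parts of the library total after TMM scaling, which adjusts for library size and composition. In 4 libraries, Citri Unshius Pericarpium high and medium replicate 3 and Cimicifugae Rhizoma medium and low replicate 2, genes that GENCODE types as antisense held 3149 to 4601 CPM, against 2375 to 3137 CPM in the other 55. The 4 were chosen with earlier results of these data known, not by a cutoff, and Coptidis Rhizoma high replicate 2 reached 3137 CPM. These 4 are called antisense-rich below, and values that rest on them are given with and without them.

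In vehicle, AKR1B10 and AKR1C2 were the most abundant of the 6 genes and AKR1A1 the least. AKR1B10 stood at 2907 ± 201 CPM (SD, n = 3), AKR1C2 at 2349 ± 65.2, AKR1C3 at 907 ± 52.3, AKR1B1 at 632 ± 12.6, AKR1C1 at 337 ± 24.6 and AKR1A1 at 40 ± 1.79. Per kilobase of coding sequence the order was the same, from 3066 CPM per kilobase for AKR1B10 to 41 for AKR1A1. Within the summed AKR1C counts, AKR1C2 took 63.4 to 71.9% over the 59 libraries, AKR1C3 17.2 to 27.2% and AKR1C1 8.77 to 12.3%.

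**Figure D1:**
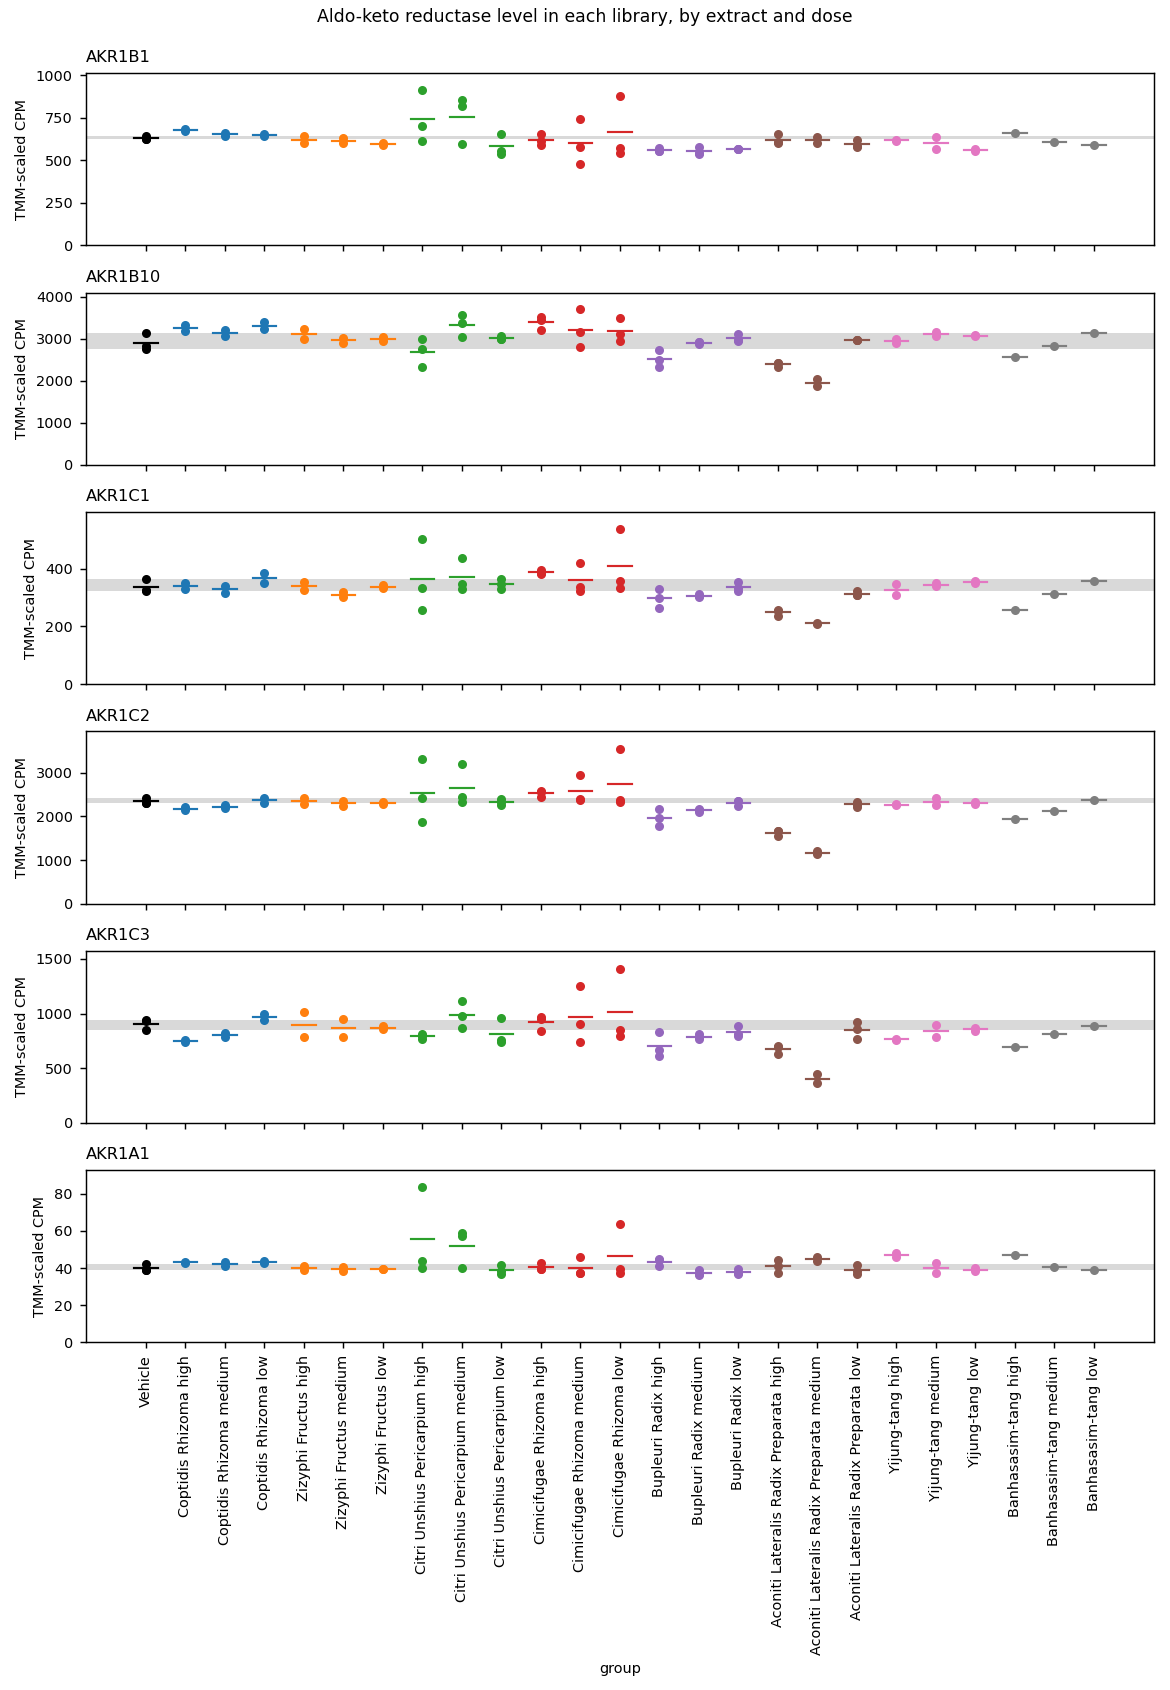
TMM-scaled CPM of the 6 genes in each of 59 libraries, by group; points are libraries, short lines are group means and the grey band is the range of the 3 vehicle libraries. AKR1B10 and the 3 AKR1C genes are lowest in the Aconiti Lateralis Radix Preparata medium group, where AKR1C2 stands at 1136 and 1199 CPM against 2304 to 2423 CPM in vehicle.

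The most marked change was with Aconiti Lateralis Radix Preparata, processed aconite root, at the medium dose of 100 µg/mL. AKR1B10 and the 3 AKR1C genes fell, AKR1C2 to 0.497 and AKR1C3 to 0.444 times the vehicle level, while AKR1B1 and AKR1A1 did not pass the test. A gene is called when the adjusted p of edgeR's quasi-likelihood test, with Benjamini-Hochberg adjustment over all 18568 genes, is under 0.05. In this comparison 4 of 6 members were called, all of them lower, where 17.5% of all genes tested were called and 9.28% were called lower. In 29.4% of all genes both treated libraries lay below every vehicle library.

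AKR1C2, the inactivator of dihydrotestosterone, read 2304, 2319 and 2423 CPM in the vehicle libraries and 1199 and 1136 CPM at the medium dose. The groups did not overlap, and both treated libraries were far below vehicle. AKR1C2 fell by 1.01 on the log2 scale (SE 0.15, edgeR adjusted p = 2.01e-06).
AKR1C3, which makes testosterone and prostaglandin F, read 847, 930.2 and 944 CPM in vehicle and 444 and 362 CPM at the medium dose. It fell by 1.17 (SE 0.18, edgeR adjusted p = 3.48e-06), the largest fold of the 6 genes here, and its 2 treated libraries differed from each other more than those of AKR1C2.
AKR1C1, the inactivator of progesterone, read 324, 322 and 365 CPM in vehicle and 211 and 209.8 CPM at the medium dose. It fell by 0.68 (SE 0.16, edgeR adjusted p = 0.00222), again without overlap.
AKR1B10, the retinal and lipid aldehyde reductase, read 2817, 2766 and 3136 CPM in vehicle and 2032 and 1879 CPM at the medium dose. The fall was 0.57 in log2 (SE 0.09, log2 fold change -0.57, edgeR adjusted p = 1.43e-05), and both treated libraries were below every vehicle library.

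Summing near copies left the fall in place. AKR1C1 and AKR1C2 together stood at 1378 ± 45.6 CPM (n = 2) against 2686 ± 89.5 in vehicle (log2 fold change -0.95, SE 0.15, edgeR adjusted p = 5.84e-06). All 4 AKR1C rows together stood at 1781 ± 103 CPM against 3593 ± 130.1 (log2 fold change -1.01, edgeR adjusted p = 1.75e-06). The share of AKR1C1 in the summed AKR1C counts was 11.4 and 12.3% in the 2 treated libraries, above its 9.01 to 9.79% in vehicle.

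AKR1B1, aldose reductase, read 624, 625 and 646 CPM in vehicle and 636 and 601 CPM at the medium dose, so the groups overlapped (log2 fold change -0.03, SE 0.15, edgeR adjusted p = 0.935). AKR1A1 read 39, 38.9 and 42 CPM in vehicle and 46.2 and 43.8 CPM at the medium dose. The log2 fold change of AKR1A1, 0.17, did not pass the test. All 4 calls held when any 1 of the 5 libraries compared was left out. Beside these values, the summed lung epithelial markers, nearly all of them KRT8, KRT18 and KRT7, stood at 6495 to 6816 CPM against 8193 to 8530.3 in vehicle. The fibroblast list, nearly all of it COL1A1, stood at 4.35 to 4.42 CPM against 32.1 to 33.4. The immune list stood at 0.429 to 0.703 CPM against 1.64 to 2.51. Mitochondrial ribosomal RNA took 2.15 to 2.64% of counts against 2.24 to 2.43% in vehicle. The part of these markers in the result was not tested.

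The fall did not follow the order of the doses. At the low dose of 20 µg/mL 0 of 6 members were called, as were 0% of all genes (1214 genes had an unadjusted p under 0.05, and 0 of the members). At the high dose of 500 µg/mL 2 of 6 were called, both lower, where 4.65% of all genes were called and 2.09% were called lower. AKR1C2 read 1657, 1551 and 1658 CPM at the high dose, below every vehicle library, and fell by 0.53 (SE 0.13, edgeR adjusted p = 0.00805). AKR1B10 read 2434, 2323 and 2421 CPM and differed by -0.28 (SE 0.08, edgeR adjusted p = 0.0397). AKR1C1 (253, 236 and 258 CPM, log2 fold change -0.44, edgeR adjusted p = 0.0755) and AKR1C3 (702, 629.9 and 693 CPM, log2 fold change -0.43, edgeR adjusted p = 0.116) were also below vehicle in every library without passing. All libraries lay below vehicle in 19.5% of all genes here. The AKR1B10 call at the high dose was marginal: leaving out any 1 of the 6 libraries compared ended it, with adjusted p up to 0.278, as did fitting with no low-count filter (adjusted p = 0.541), and that of AKR1C2 ended without Aconiti Lateralis Radix Preparata high replicate 2 (adjusted p = 0.0679). With the 4 antisense-rich libraries left out, which are in neither group but enter the shared estimate of spread, all 4 genes were called, AKR1C1 with an adjusted p of 2.42e-05 and AKR1C3 with 0.00313, and 15% of all genes were called in that fit. AKR1C1 and AKR1C2 summed stood at 1870.4 ± 73.1 CPM (n = 3) against 2686 ± 89.5 in vehicle (log2 fold change -0.51, edgeR adjusted p = 0.0122). The lung epithelial markers stood at 6657 to 7158 CPM and the fibroblast list at 15.2 to 18.6 CPM at this dose, both below vehicle, and their part in the result was not tested.

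The medium dose was set against the other doses of the same extract after its fall had been seen. Against the low dose, the same 4 genes were called lower, with log2 fold changes of -0.6 for AKR1B10, -0.57 for AKR1C1, -0.96 for AKR1C2 and -1.07 for AKR1C3 (17.8% of all genes called, 9.87% lower). AKR1C1 and AKR1C2 summed gave -0.9 (edgeR adjusted p = 1.43e-05). Leaving out either medium library ended the AKR1C1 call, with edgeR adjusted p of 0.0861 and 0.0958. Against the high dose 3 of 6 were called lower, AKR1B10, AKR1C2 and AKR1C3 (7.78% of all genes called, 4.64% lower), and both medium libraries lay below all 3 high libraries in each of them, as in 25.9% of all genes. In this comparison leaving out any of the 5 libraries ended the calls of AKR1B10 and AKR1C2, and leaving out medium replicate 2 also ended that of AKR1C3 (edgeR adjusted p = 0.165). The call of AKR1C2 was also lost in the sum of AKR1C1 and AKR1C2 (log2 fold change -0.44, edgeR adjusted p = 0.0573) and with the replicate block (adjusted p = 0.0588), and that of AKR1B10 with no low-count filter (adjusted p = 0.438). High against low, AKR1C2 (log2 fold change -0.49, edgeR adjusted p = 0.0207) and AKR1B10 (log2 fold change -0.31, edgeR adjusted p = 0.0227) were called lower, as were 1.72% of all genes (3.29% called in either direction), and both calls were lost when any 1 of the 6 libraries was left out. The sum of AKR1C1 and AKR1C2 gave -0.46 (edgeR adjusted p = 0.0366), and that of all 4 AKR1C rows gave -0.43 (adjusted p = 0.051).

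**Figure D2:**
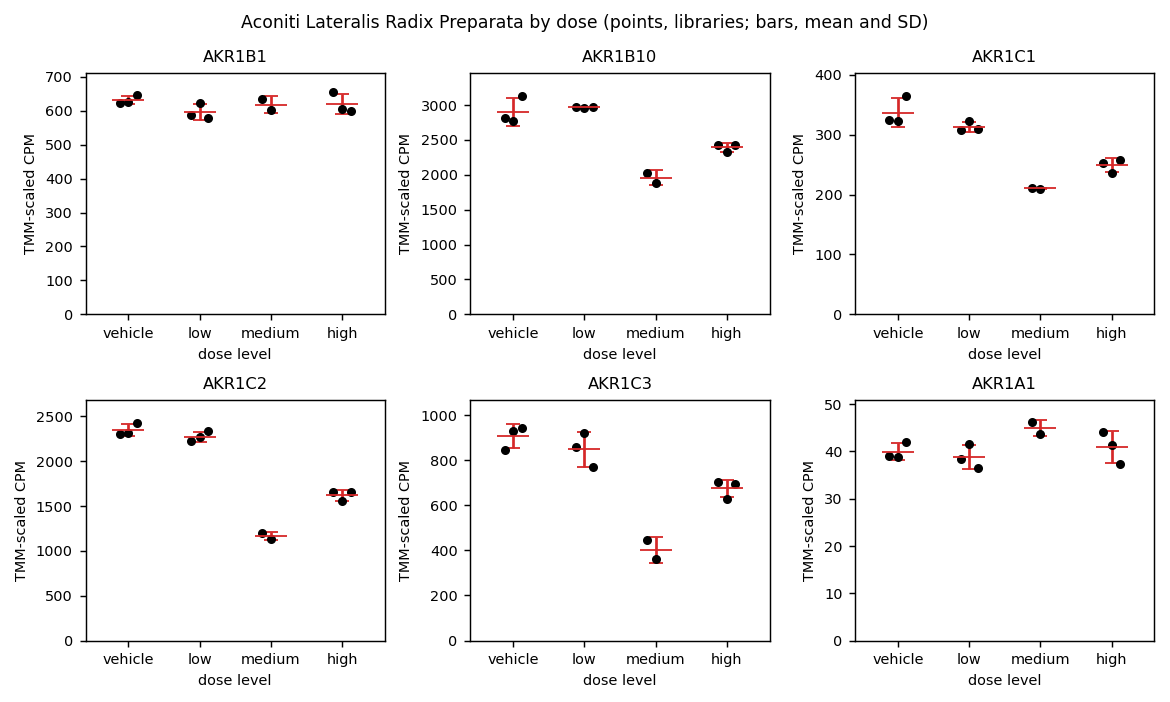
TMM-scaled CPM of the 6 genes in vehicle and at the low, medium and high doses of Aconiti Lateralis Radix Preparata; points are libraries, bars are the mean and SD (n = 3, 3, 2 and 3). AKR1B10, AKR1C1, AKR1C2 and AKR1C3 are lowest at the medium dose and between medium and low at the high dose, while AKR1B1 stays between 578 and 654 CPM.

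Other genes of the same chemistry and of the NRF2 pathway were read in the same comparison, from lists drawn up with earlier results of these data known. Each count below stands beside 9.28% of all genes called lower and 8.23% called higher at the medium dose. Of 36 other NRF2 targets, 12 were called lower and 1 higher at the medium dose, with a median log2 fold change of -0.22 against -0.01 for all genes. GPX2, a glutathione peroxidase, fell from 231 to 59.5 CPM (log2 fold change -1.96, edgeR adjusted p = 8.75e-13). EPHX1, an epoxide hydrolase, fell from 169 to 83.9 CPM (log2 fold change -1.01), and CYP4F3, a fatty acid hydroxylase of the cytochrome P450 family, from 36.4 to 11.7 CPM (log2 fold change -1.64). HMOX1, heme oxygenase, rose from 168 to 274 CPM (log2 fold change 0.7, edgeR adjusted p = 4.53e-05). At the high dose 5 of the 36 were called lower and 1 higher, beside 2.09% and 2.56% of all genes.

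Among 12 genes that regulate NRF2, 3 were called higher and 0 lower. SQSTM1, an adaptor that binds KEAP1, rose from 805 to 1763 CPM, and MAFF, a small MAF partner of NRF2, rose from 5.49 to 20.5 CPM. NFE2L1, a relative of NRF2, rose from 261 to 363 CPM. NRF2 itself (NFE2L2) stood at 129.6 ± 9.76 CPM against 119.9 ± 5.37 in vehicle (edgeR adjusted p = 0.539), and KEAP1 at 74.1 ± 2.73 against 77.6 ± 2.6 (edgeR adjusted p = 0.712). Neither passed.

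NADPH is the cofactor of aldo-keto reductases. Of 12 genes listed for NADPH supply and the pathways around it, not all of which make NADPH, 6 were called lower and 0 higher. Their median log2 fold change was -0.33. IDH1 went from 233 to 164 CPM, TKT from 1669 to 1132 CPM and ME1 from 183 to 125 CPM. TKT, ME1 and PGD also stand in the list of NRF2 targets. Of 23 tested carbonyl reductases and aldehyde dehydrogenases outside the family, 8 were called lower and 1 higher: ALDH1A1, a retinal dehydrogenase, fell from 6489 to 4719 CPM, and ALDH1A3 rose from 18.7 to 31.3 CPM.

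Of 20 tested genes that share steroid or prostaglandin substrates with the AKR1C enzymes, 6 were called lower and 2 higher. SULT2B1, a sterol sulfotransferase, fell from 24.5 to 5.21 CPM (log2 fold change -2.23), and STS, steroid sulfatase, from 10.9 to 5.97 CPM. PTGS2, cyclooxygenase, rose from 22.3 to 74 CPM (log2 fold change 1.73, edgeR adjusted p = 0.000218), and PTGES, a prostaglandin E synthase, rose from 18.2 to 25.2 CPM. Of 9 tested other aldo-keto reductases, 1 was called in each direction: KCNAB2, a potassium channel subunit of this fold, rose from 7.01 to 10.1 CPM, and AKR1C4, the liver member of the AKR1C cluster, had 2 and 5 counts against 11, 14 and 8 in vehicle. The ratio of its summed counts, scaled for library size, was 0.26 (95% interval 0.0971 to 0.598, counting error only). Of the 10 genes of the polyol pathway and osmotic response, where AKR1B1 acts, 2 were called lower and 1 higher. Targets of AhR, the aryl hydrocarbon receptor, were called higher in 2 of 7 and lower in 1 at the medium dose. At the high dose 5 of 7 were called higher, beside 2.56% of all genes. Their median log2 fold change there was 0.79 against 0 for all genes.

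**Figure D3:**
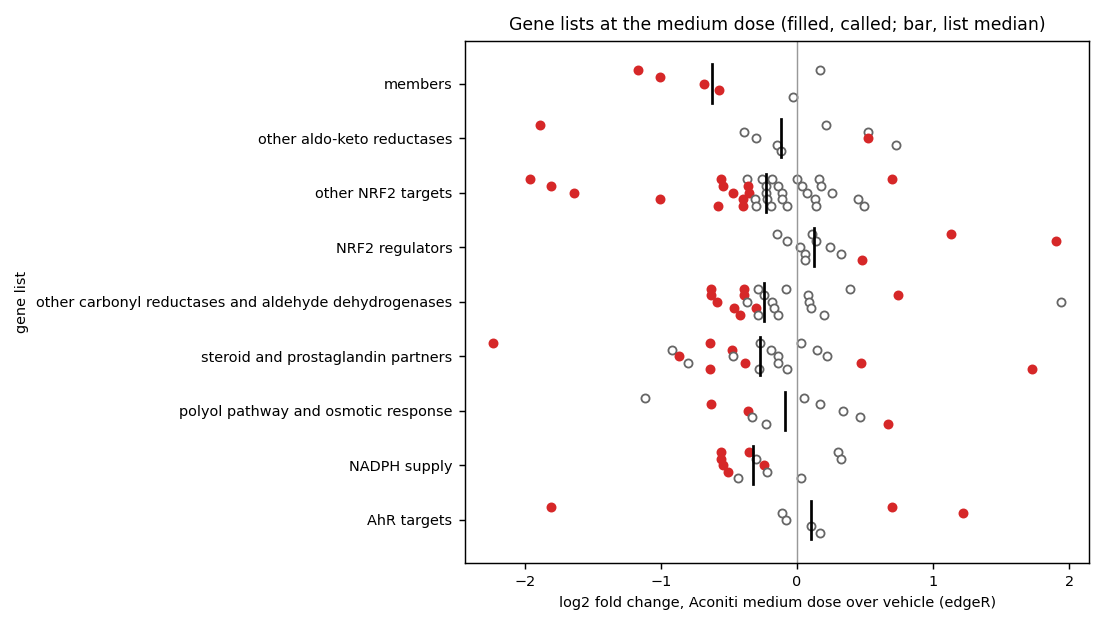
Log2 fold change of each tested gene at the medium dose of Aconiti Lateralis Radix Preparata over vehicle, by gene list; filled points passed the test, open points did not, and the bar is the median of the list. Genes in 2 lists are drawn in both. In the NADPH list 6 filled points lie to the left of 0 and none to the right.

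In the other comparisons against vehicle no member was called, higher or lower. Over 31 comparisons, fitted in 1 model, called members numbered 2 of 42 at the high doses against vehicle, 4 of 42 at the medium doses, 0 of 42 at the low doses, 2 of 42 in high against low and 1 of 18 between extracts, and all but the last were in Aconiti Lateralis Radix Preparata. The share of all genes called at the other medium doses was 3.27% for Coptidis Rhizoma, 0.0269% for Cimicifugae Rhizoma, 0.0108% for Yijung-tang, 0.00539% for Bupleuri Radix and 0% for the other extracts. At the low doses it was 0.447% for Coptidis Rhizoma, 0.00539% for Citri Unshius Pericarpium and 0% elsewhere. High against low it was 2.31% for Coptidis Rhizoma, 3.54% for Citri Unshius Pericarpium, 0.221% for Cimicifugae Rhizoma, 1.58% for Bupleuri Radix, 0.431% for Yijung-tang and 0% for Zizyphi Fructus.

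**Figure D4:**
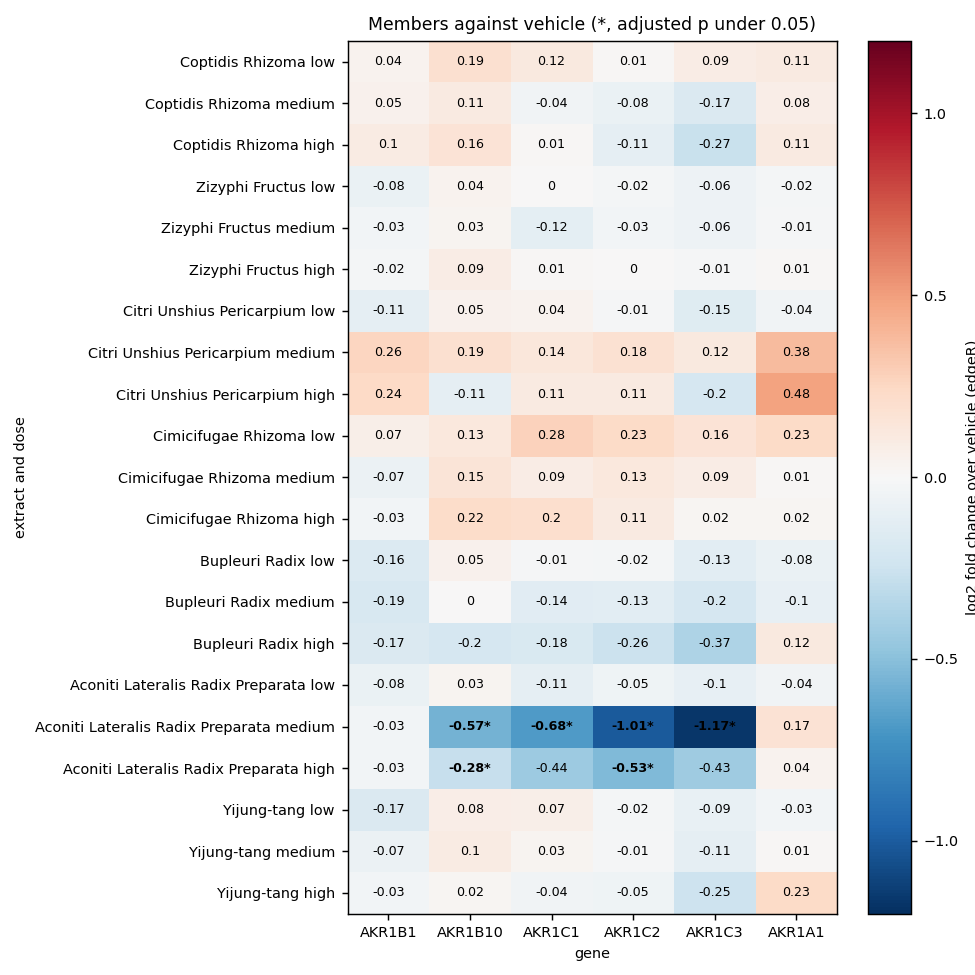
Log2 fold change over vehicle of the 6 genes (columns) for each of 21 extract and dose groups (rows), from edgeR; asterisks mark adjusted p under 0.05. The 6 marked cells are in the medium and high rows of Aconiti Lateralis Radix Preparata, from -0.28 to -1.17.

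Bupleuri Radix at 190 µg/mL gave the lowest replicated group means of AKR1B10, AKR1C1, AKR1C2 and AKR1C3 after the medium and high doses of Aconiti Lateralis Radix Preparata. AKR1C2 read 1962, 1772 and 2165 CPM, all below the vehicle libraries, with a log2 fold change of -0.26 (SE 0.13, edgeR adjusted p = 0.362). AKR1C3 read 666, 608 and 829 CPM (log2 fold change -0.37, edgeR adjusted p = 0.22), and AKR1B10 read 2503, 2328 and 2734 CPM (log2 fold change -0.2, edgeR adjusted p = 0.208). None of the 6 members was called, where 3.36% of all genes were. In all 3 libraries 4 members, AKR1B1, AKR1B10, AKR1C2 and AKR1C3, were below vehicle, as were 19.1% of all genes. AKR1B1 stood at 553 to 574 CPM against 624 to 646 in vehicle, and AKR1C1 overlapped vehicle. With the 4 antisense-rich libraries left out AKR1C2, AKR1C3 and AKR1B10 were called, with log2 fold changes of -0.25, -0.37 and -0.2. Their edgeR adjusted p was 0.00367, 0.0116 and 0.0163. In that fit 14.3% of all genes were called. The sum of AKR1C1 and AKR1C2 gave -0.24 in the model of all libraries (edgeR adjusted p = 0.414). The lung epithelial markers stood at 5875 to 6469 CPM here against 8193 to 8530.3 in vehicle, and their part in the values was not tested.

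With Coptidis Rhizoma at 110 µg/mL, 12.6% of all genes were called but 0 of 6 members. AKR1C3 read 740.4 and 763 CPM against 847 to 944 in vehicle (log2 fold change -0.27, SE 0.17, edgeR adjusted p = 0.361). AKR1B10 read 3188 and 3322 CPM against 2766 to 3136 in vehicle (log2 fold change 0.16, edgeR adjusted p = 0.289). When the model held just vehicle and Coptidis Rhizoma, 4 members were called, AKR1C3 lower (log2 fold change -0.25, adjusted p = 0.000501) and AKR1B10, AKR1B1 and AKR1A1 higher by 0.18, 0.12 and 0.13, and 44% of all genes were called in that fit. Mitochondrial ribosomal RNA took 6.09 to 6.42% of counts at this dose against 2.24 to 2.43% in vehicle. The lung epithelial markers stood at 5996 to 6043 CPM against 8193 to 8530.3, the fibroblast list at 26 to 27.8 against 32.1 to 33.4 and the immune list at 0.949 to 1.18 against 1.64 to 2.51. The part of these in the values was not tested. Of the 7 AhR targets 5 were called higher here, beside 6.41% of all genes, with a median log2 fold change of 1.9 against -0.01 for all genes. CYP1B1, a cytochrome P450, rose from 55.3 to 239 CPM. AKR1B1, whose 2 overlapping RefSeq windows share a single match to the AhR core letters GCGTG (searched on both strands, in 36.5% of all windows), was at 674 and 682 CPM, with a log2 fold change of 0.1 (SE 0.15, edgeR adjusted p = 0.754).

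With Cimicifugae Rhizoma at 500 µg/mL AKR1B10 read 3216, 3436 and 3520.2 CPM against 2766 to 3136 in vehicle. Its mean of 3391 CPM there was the highest group mean of this gene. Here 0.377% of all genes and 0 of 6 members were called. The log2 fold change of 0.22 (SE 0.08, edgeR adjusted p = 0.434) did not pass with all libraries and passed with the 4 antisense-rich libraries left out (adjusted p = 0.026, with 3.72% of all genes called). The sum of AKR1C1 and AKR1C2 gave 0.12 (edgeR adjusted p = 0.986). The lung epithelial markers stood at 5723 to 6602 CPM, below vehicle, and their part in the values was not tested. The highest group means of AKR1C1, AKR1C2 and AKR1C3 were at its low dose, where replicate 2, one of those 4 libraries, read 3538 CPM of AKR1C2 and the other 2 read 2371 and 2328 CPM. The lung epithelial markers spanned 6813 to 15313 CPM at that low dose, against 8193 to 8530.3 in vehicle.

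Citri Unshius Pericarpium at 500 µg/mL had 0 of 6 members called, where 4.42% of all genes were, and its replicates lay far apart. At its high dose AKR1A1 read 40.2, 43.6 and 83.5 CPM, and AKR1B1 read 616, 704 and 916 CPM. The highest value of each was in replicate 3, one of the 4 libraries, and AKR1A1 overlapped vehicle (log2 fold change 0.48, SE 0.16, edgeR adjusted p = 0.0726). The lung epithelial markers spanned 7853 to 21027 CPM at this dose against 8193 to 8530.3 in vehicle. The fibroblast list spanned 19.8 to 74.9 CPM against 32.1 to 33.4, and mitochondrial ribosomal RNA 1.24 to 3.02% of counts against 2.24 to 2.43%. The part of these in the values was not tested. High against low, where same-numbered libraries deviated together, AKR1A1 differed by 0.51 (edgeR adjusted p = 0.0613) and AKR1B1 by 0.35 (adjusted p = 0.106). Both passed with the library set and replicate number as a block. AKR1A1 then differed by 0.49 (SE 0.16, edgeR adjusted p = 0.0459) and AKR1B1 by 0.35 (SE 0.1, edgeR adjusted p = 0.0372). Without high replicate 3 the differences were 0.11 and 0.17 (adjusted p = 0.889 and 0.793). At the medium dose AKR1A1 read 40, 59 and 57.3 CPM and passed without the 4 libraries (log2 fold change 0.31, edgeR adjusted p = 0.0423, with 2.81% of all genes called).

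Between extracts of the same library set at 500 µg/mL, AKR1B10 was lower with Citri Unshius Pericarpium (2997, 2748 and 2321 CPM) than with Cimicifugae Rhizoma, with a log2 fold change of -0.33 (SE 0.08, edgeR adjusted p = 0.0201), where 7.67% of all genes were called and 1.41% were called lower. Without Citri Unshius Pericarpium high replicate 3 the difference was -0.24 (adjusted p = 0.278), without any 1 of the 3 Cimicifugae Rhizoma libraries the call was also lost (adjusted p up to 0.0886), and a fit of the libraries of these 2 extracts alone gave an adjusted p of 0.601. AKR1C2 gave a log2 fold change of 0 (SE 0.13) between these extracts. Without the 4 libraries AKR1C1 was also called lower with Citri Unshius Pericarpium (log2 fold change -0.39, edgeR adjusted p = 0.00358, with 2.49% of all genes called). Coptidis Rhizoma against Zizyphi Fructus and Bupleuri Radix against Aconiti Lateralis Radix Preparata called 0 of 6 members (8.12 and 1.33% of all genes). The doses of each of these pairs differ, 110 against 500 µg/mL and 190 against 500 µg/mL.

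With Yijung-tang (1.37% of all genes called at the high dose) and Zizyphi Fructus (0%), 0 of 6 members were called at each dose. With Yijung-tang at 500 µg/mL AKR1C3 read 762 and 765 CPM against 847 to 944 in vehicle (edgeR adjusted p = 0.691). AKR1A1 read 47.9 and 46.2 CPM against 38.9 to 42 in vehicle (edgeR adjusted p = 0.743). Zizyphi Fructus at 500 µg/mL gave log2 fold changes of -0.02 to 0.09. Banhasasim-tang, with 1 library per dose and no replicate check, read 255 CPM of AKR1C1, 1937 CPM of AKR1C2, 691 CPM of AKR1C3 and 2568 CPM of AKR1B10 at 500 µg/mL, or 0.757, 0.825, 0.762 and 0.884 times the vehicle mean. All 4 values were below every vehicle library, as were 37.1% of all genes tested in that library. Mitochondrial ribosomal RNA took 15.2% of its counts, and the part of this in the values was not tested.

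Across vehicle and the 24 extract and dose groups, 4 members varied together, and the other 2 varied with each other but apart from those 4. Pearson correlations of the mean log2 CPM per group were 0.89 to 0.95 among AKR1B10, AKR1C1, AKR1C2 and AKR1C3, and 0.82 between AKR1B1 and AKR1A1, and those between these sets were -0.2 to 0.15. With the 4 antisense-rich libraries and the Aconiti Lateralis Radix Preparata medium group left out, the correlations were 0.79 (AKR1B10 with AKR1C3) to 0.9 among the first 4 genes and 0.75 between AKR1B1 and AKR1A1. These are descriptions over 25 points that share the scaling, and for the AKR1C genes also reads. In the order of the 22 replicated group means, 0 to 3 of 21 neighbouring pairs per gene had libraries that did not overlap.

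**Figure D5:**
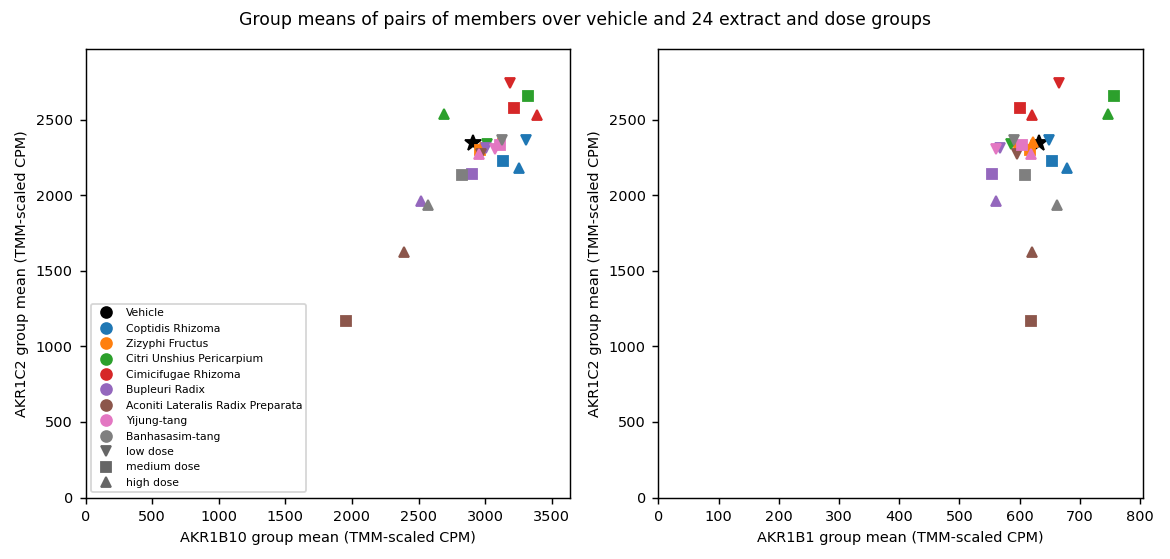
Group means (TMM-scaled CPM) of AKR1C2 against AKR1B10 (left) and against AKR1B1 (right) for vehicle and 24 extract and dose groups, coloured by extract, with the dose level as the shape. On the left the groups lie along a rising line that ends at 1955 and 1168 CPM in the Aconiti Lateralis Radix Preparata medium group; on the right that group is low in AKR1C2 and mid-range in AKR1B1.

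The genes most like each member were taken as the 3 with the highest Pearson correlation over the 25 group means, among 10788 genes with a mean of at least 5 CPM. For AKR1C2 they were AKR1C3 (0.95), EPHX1 (0.943) and HGD (0.942), and for AKR1C3 they were AKR1C2 (0.95), SFRP4 (0.942) and BCAS1 (0.929). For AKR1C1 they were AKR1C2 (0.941), ELF3 (0.92) and AKR1B10 (0.907), and for AKR1B10 they were UGP2 (0.911), TRIM16 (0.909) and AKR1C1 (0.907). AKR1B1 was most like TSPO (0.942), MKKS (0.919) and RPS3 (0.912), and AKR1A1 most like NT5M (0.907), PRDX5 (0.903) and SUMF2 (0.901). With the 4 antisense-rich libraries left out 1 of the 3 names stayed for AKR1B1, AKR1B10, AKR1C2, AKR1C3 and AKR1A1. By Spearman correlation none of the 3 names stayed for AKR1C2 or AKR1A1, and each other member kept at least 1.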

How the data were processed

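The authors deposited 1 gene table of expected counts for the whole series; 210 of its columns match no sample used here and were not used. Per the submitters' processing notes the genome was GRCh38, STAR 2.7.3a and RSEM 1.3.3 are listed, and so are Trim Galore 0.6.5 and FastQC 0.11.9. Which annotation was used was not given in the sources used here. RSEM divides reads that fit several genes by estimate. The deposited expected counts (84.4% of values whole) were rounded to whole numbers. Totals were 17214755 to 39751161 per library, and depth and replicate number set the precision. GENCODE 29 gave symbols, gene models and coding sequences.

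All groups entered 1 edgeR 4.0.16 quasi-likelihood model (R 4.3.3, limma 3.58.1) with TMM factors, after filterByExpr (minimum count 10, minimum total 15), which left 18568 genes and 34 residual degrees of freedom. The 3 Banhasasim-tang libraries, 1 per dose, entered no test. P-values were Benjamini-Hochberg adjusted over all genes tested within each of 31 comparisons and 3 differences of comparisons. Comparisons with vehicle share its 3 libraries. The medium dose of Aconiti Lateralis Radix Preparata against its other doses was added after the data were seen. Alternatives were DESeq2 1.42.0, other scalings, no filter, other sets of libraries, a replicate block and summed near copies. The fit was also run on counts simulated with the same spread of a gene in every group. The groups here differed in spread, and no result rests on that run.

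The members, gene lists and the choice of 4 libraries were made with earlier results of these data known. Named genes are the members, called list genes (at most 8 per list, by size of change) with NFE2L2 and KEAP1 added after their values were seen, and the 3 genes most like each member by Pearson correlation of mean log2 CPM (prior count 2, mean of at least 5 CPM). Same-numbered libraries deviated together in 1 comparison, Citri Unshius Pericarpium high against low (correlations 0.12 to 0.24 over 3 pairs), so its blocked values are printed.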

Additional observations from a re-analysis of the deposited data

Results flagged for a closer look

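With Aconiti Lateralis Radix Preparata, the changes from vehicle differed between the medium and the high dose in 3 of the 6 genes by edgeR's quasi-likelihood test of the difference itself. The medium minus high difference in log2 fold change was -0.29 for AKR1B10 (adjusted p = 0.0457), -0.47 for AKR1C2 (adjusted p = 0.0354) and -0.74 for AKR1C3 (adjusted p = 0.00395). In each of these genes both medium libraries lay below all 3 high libraries. The AKR1C2 difference did not pass in the sum of AKR1C1 and AKR1C2 (-0.44, adjusted p = 0.0573) or with the replicate block (adjusted p = 0.0588), and the AKR1B10 difference did not pass with no low-count filter (adjusted p = 0.438). The comparison was added after the data were seen, and the calls that end without 1 library are given with the comparison above.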

How the results depend on the processing

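The fall of AKR1B10, AKR1C1, AKR1C2 and AKR1C3 at the medium dose of Aconiti Lateralis Radix Preparata stayed at 4 called members in each alternative run, and no gene reversed a called direction. Other counts of called members moved, and the cause was not tested. The share of all genes called also moved between fits, as printed above for some comparisons. The counts below are therefore not read as a result about the members. With the 4 antisense-rich libraries left out, the count against vehicle was 1 for Coptidis Rhizoma high, 1 for Cimicifugae Rhizoma high, 3 for Bupleuri Radix high, 4 for Aconiti Lateralis Radix Preparata high and 1 for Citri Unshius Pericarpium medium; high against low it was 2 for Bupleuri Radix and 4 for Aconiti Lateralis Radix Preparata; Citri Unshius Pericarpium against Cimicifugae Rhizoma gave 2 and Bupleuri Radix against Aconiti Lateralis Radix Preparata gave 2. With only the libraries compared in the fit, the high doses of Coptidis Rhizoma, Bupleuri Radix and Aconiti Lateralis Radix Preparata gave 4 each and Yijung-tang 2, the lower doses of Coptidis Rhizoma and Bupleuri Radix (medium and low) gave 1 each, high against low gave 2 for Coptidis Rhizoma, 3 for Bupleuri Radix, 4 for Aconiti Lateralis Radix Preparata and 1 for Yijung-tang, and the extract pairs gave 1 for Coptidis Rhizoma against Zizyphi Fructus, 0 for Citri Unshius Pericarpium against Cimicifugae Rhizoma and 3 for Bupleuri Radix against Aconiti Lateralis Radix Preparata. With no low-count filter Citri Unshius Pericarpium high gave 1 against vehicle and 1 against low, and Aconiti Lateralis Radix Preparata high against low gave 1. DESeq2 gave 1 for Citri Unshius Pericarpium high against vehicle, 1 against low and 2 against Cimicifugae Rhizoma. Upper-quartile factors left 1 for Aconiti Lateralis Radix Preparata high against vehicle, and library totals left 1 there and 1 in high against low. Library totals shifted the median log2 fold change of all genes by up to 0.15. The high against low change of Citri Unshius Pericarpium minus that of Cimicifugae Rhizoma, 0 called at first, gave 1 with no filter, DESeq2, RLE factors or mitochondrially encoded genes left out. With the replicate block it gave 2, and Citri Unshius Pericarpium high against low gave 2. This block was the replicate number in comparisons with vehicle, and the library set with the replicate number in the others. What libraries of the same block share beyond these codes is not stated in the labels. Leaving out 1 replicate at a time, the counts ranged from 0 to 1 for Aconiti Lateralis Radix Preparata high against vehicle, 0 to 0 high against low, 3 to 4 medium against low and 0 to 1 medium against high. They ranged from 0 to 1 for Citri Unshius Pericarpium high and 0 to 1 medium against vehicle, 0 to 3 high against low, 0 to 3 against Cimicifugae Rhizoma and 0 to 3 for the difference of the high against low changes. For the medium dose of Aconiti Lateralis Radix Preparata against its high dose, 3 called at first, the count was 4 with the 4 antisense-rich libraries left out and with only the libraries compared, and 2 with no filter and with the replicate block. Against the low dose, 4 at first, it was 5 in the former pair of fits, where AKR1A1 was called higher (adjusted p = 0.0414 and 0.032). Where a group was left with 1 library, that library was assumed to vary like the other groups.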
